A study of Mus musculus with 18 samples.

Results

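The dura mater of wild-type mice 2 days after an experimental stroke was compared with the dura of naive wild-type mice. The samples were taken by their labels alone: the 3 arrays of wild-type dura after stroke and the 3 arrays of naive wild-type dura, which are 6 of the 18 arrays in the series. Every gene with a probe set of its own was tested, 19937 genes in all. Both groups were male WBB6F1-Kit+/+ mice of 17 to 21 weeks, and none had received mast cells. Stroke had been induced by a filament that blocked the middle cerebral artery during 30 minutes. The other mice were labelled naive and matched in age. Sham-operated mice were not analysed here, so the stroke and the surgery that produced it cannot be told apart. The mice were flushed with saline before the dura was removed, and each array held the RNA of 1 dura, with no pooling. Mast cell-deficient KitW/W-v mice enter the closing comparison, each category with 3 naive and 3 stroke arrays. So do KitW/W-v mice given mast cells into a vein 8 to 10 weeks before the experiment. The arrays of these mice also enter the estimate of spread behind every wild-type result. The W and W-v alleles are carried by every cell of those mice, so other cells that depend on Kit are affected too.

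The dura is the outer, fibrous membrane around the brain. It lies under the skull and holds collagen-making fibroblasts, blood vessels without a tight barrier, lymphatic vessels, resident macrophages and mast cells, beside the arachnoid cell layer that closes off the fluid space. In a wounded connective tissue, fibroblasts and other resident cells divide, metalloproteinases and plasmin cut the existing matrix, chemokines draw neutrophils and monocytes from the blood, and cytokines of the interleukin 6 family switch on acute phase genes through the receptor chain gp130 and the factor Stat3.

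All values are log2 expression levels as deposited, so a difference of 1 is a doubling. A gene was said to rise or fall when limma's moderated test, fitted across the 21640 probe sets that name 1 gene each, gave a Benjamini-Hochberg adjusted p under 0.05. The SE given with each difference is that of the fit. The p-values measure the spread between mice within a group, with 3 mice a group. Because these are whole-tissue samples, fewer cells of a type and less RNA per cell cannot be told apart. Over all genes, array by array, the correlation was 0.9908 to 0.9944 among the naive arrays and 0.9888 to 0.9928 among the stroke arrays. The lower quartile of an array lay between 6.09 and 6.23, and a level below it has not been shown here to be above background.

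The label was checked against marker lists before any other result. Fibroblast genes were high in all 6 arrays, with decorin (Dcn) at 13.12 to 13.32 and lumican (Lum) at 11.90 to 12.46, and the mast cell protease Cpa3 stood at 8.39 to 9.79. Some genes listed for tissue beside the dura were high as well, though none was shown here to be particular to that tissue. Tph1, a melatonin pathway enzyme of the pineal gland, read 12.47 to 13.28, and transthyretin (Ttr), the main product of the choroid plexus, read 13.38 to 13.78 in 5 arrays but 9.03 in stroke array 2. A score was computed for each marker list as the mean level of its genes minus their mean over all 18 arrays. The choroid plexus score of stroke array 2 was -2.03 against 0.78 to 1.28 in the other 5 arrays, and its granulocyte precursor score was 1.07 against -0.31 to 0.00, so this array stood apart. The neuron score moved with the groups: it was -0.10, 0.03 and 0.46 in the naive arrays and -0.56, -0.49 and -0.92 after stroke. The mast cell, erythroid, astrocyte and melanocyte scores were also lower in all 3 stroke arrays than in all 3 naive arrays, and the monocyte and neutrophil scores higher, while 17 of the 24 lists overlapped. The part of all these scores in the results was not tested. A fit with 2 of them, choroid plexus and neuron, held as covariates is given beside many named genes whose calls it ended, though not all. The neuron score separates the groups, so this fit also takes out part of the stroke difference. A call lost in it does not show that the scores account for the difference.

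**Figure D1:**
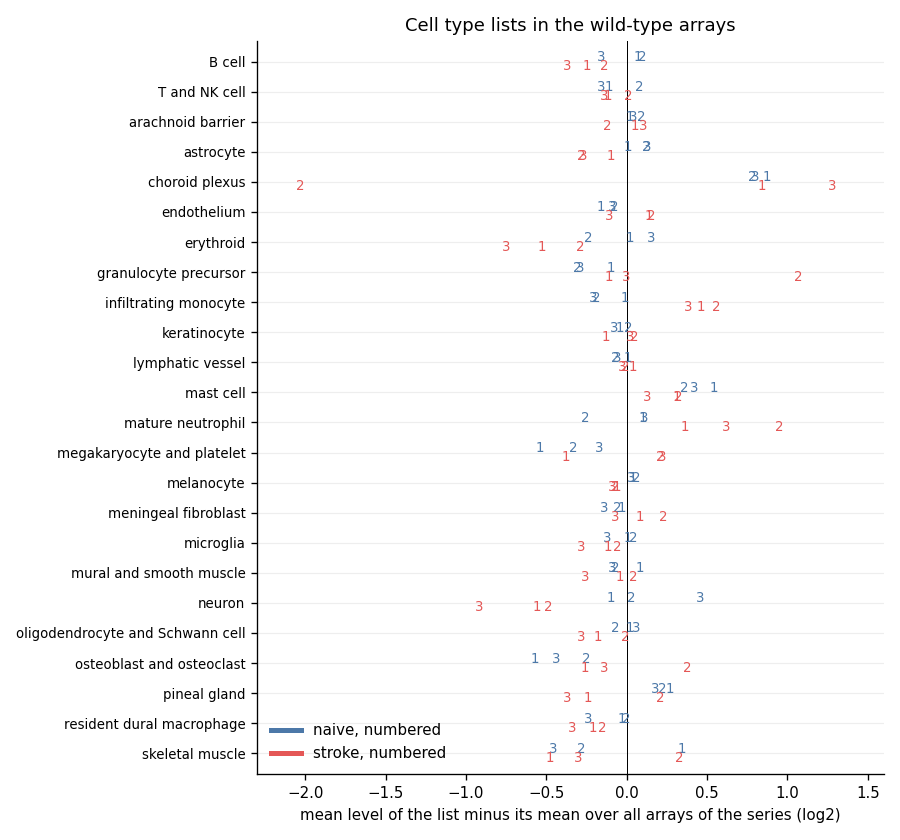
Marker scores of the 24 cell type lists in each wild-type array. Each row is a list and each symbol an array with its number, naive or stroke, on a log2 axis centred on the mean of all 18 arrays. Stroke array 2 lies at -2.03 for the choroid plexus list, and all 3 stroke arrays lie below all 3 naive arrays for the neuron list.

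The stroke dura differed from naive dura in 2352 of 21640 probe sets, 10.9%, of which 1351 were higher and 1001 lower. Counted as genes, with the brightest probe set standing for each, 1265 rose (6.34% of 19937) and 900 fell (4.51%). These shares are the background for each list count below. Most changes were small. The median rise was 0.44 and the median fall -0.46, while 137 genes rose and 64 fell by 2-fold or more, and 15 rose and 2 fell by 4-fold or more. The median over all genes was 0.01, in a table whose array medians are nearly equal as deposited. For 6003 genes, 30.1%, the 3 stroke and 3 naive arrays did not overlap, whatever the size of the gap. The count of 2352 depended on single mice: it was 1371 without naive array 3, 1429 without stroke array 3, 1555 without stroke array 2 and 1558 without naive array 2.

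**Figure D2:**
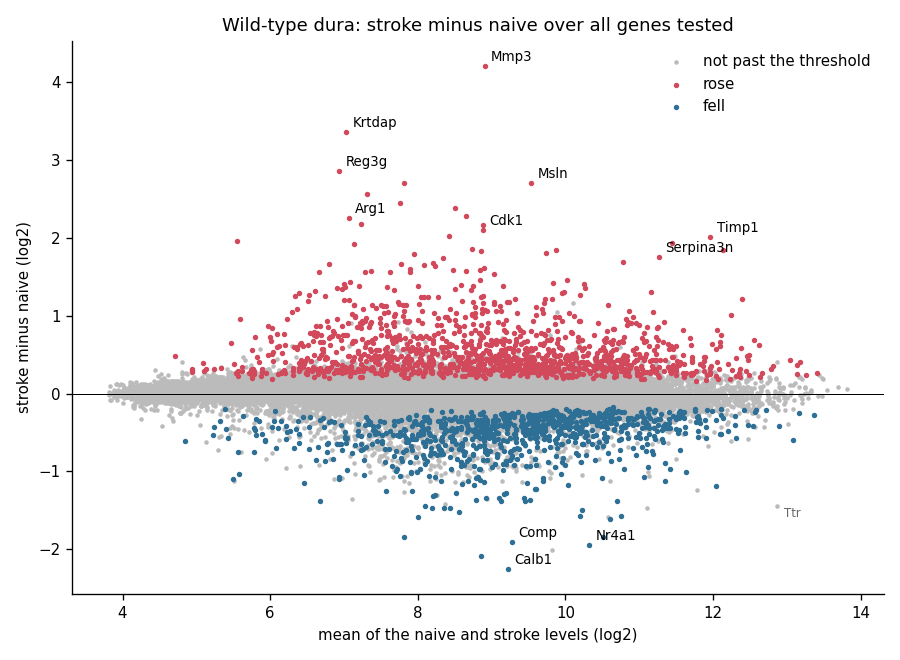
Difference between stroke and naive dura for each gene on the y axis (log2) against its mean level over the 6 arrays on the x axis (log2). Each point is a gene, coloured where it rose (1265 genes) or fell (900 genes). Chosen genes with large differences are named, but not all of the largest, and Ttr is named though it was not called.

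The gene that rose most was stromelysin-1, Mmp3 (probe set 10583071), a secreted metalloproteinase that cuts proteoglycans and activates other metalloproteinases. It read 6.72, 6.91 and 6.79 in the naive arrays and 10.83, 11.09 and 11.12 after stroke. Every stroke array was thus more than 3 log2 units above every naive array, and the difference of 4.21 ± 0.18 (adjusted p = 3.13e-09) equals 18.5-fold. Of 19 measured metalloproteinases, their relatives and their inhibitors, 12 rose and 0 fell, with a median difference of 0.52 against 0.01 over all genes. The count of 12 was 11 to 13 without any 1 array and 7 with the score covariates.

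The changed members belonged to several classes. Timp1, an inhibitor that blocks most metalloproteinases, went from 11.15, 10.87 and 10.86 to 12.81, 12.98 and 13.11 (2.01 ± 0.13). Its relative Timp3 did not pass (-0.09 ± 0.08, adjusted p = 0.490), so the inhibitors did not share 1 response. Among the aggrecanases, which cut cartilage-type proteoglycans, Adamts5 rose by 1.27 ± 0.13 and Adamts4 by 1.39 ± 0.18. Gelatinase B, Mmp9, which neutrophils and osteoclasts also carry, read 9.92, 10.19 and 9.92 in naive dura against 10.89, 11.56 and 10.99 after stroke (1.14 ± 0.21). Collagenase Mmp13 read 12.41, 11.53 and 11.44 and then between 12.99 and 13.04 in the 3 stroke arrays, with naive array 1 above its group (1.22 ± 0.23). The membrane-bound Mmp14 rose by 0.66 ± 0.14, and the leukocyte sheddase Adam8 by 1.06 ± 0.11. Of these genes, Mmp13 and Mmp14 were not called as rising with the score covariates.

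The promoter of Mmp3 is shown because the gene had the largest rise and because its upstream region holds a match to the AP-1 motif TGACTCA, the sequence bound by Fos and Jun proteins, here read from the other strand as TGAGTCA. The 250 bases before its start are chr9:7445572-7445821 on the plus strand (RefSeq, GRCm38.p6), with the match in capitals, beginning 46 bases before the start.
Mmp3: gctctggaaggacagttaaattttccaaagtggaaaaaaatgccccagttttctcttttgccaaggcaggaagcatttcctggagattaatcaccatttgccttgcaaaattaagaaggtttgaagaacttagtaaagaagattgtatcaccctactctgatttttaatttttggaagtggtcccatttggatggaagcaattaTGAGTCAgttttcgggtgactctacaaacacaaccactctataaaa
The motif, searched on both strands from 250 bases before to 50 after the start, occurred in 4.52% of 15562 gene promoters, in 7.29% of those of genes that rose and in 3.34% of those of genes that fell. Of the metalloproteinase list it was in 3 of 13. Neither Timp1 nor Adam8 held it in the 250 bases before the start. A match is a description of the letters and not a measured binding site.

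Genes of the plasmin system rose as well. Of 12 measured genes of plasminogen activation and clotting, 7 rose and 0 fell (median 0.53). The receptor of urokinase, Plaur, read 7.73, 7.89 and 7.89 in naive arrays and 9.05, 9.19 and 9.29 after stroke (1.34 ± 0.13). Urokinase itself, Plau, rose by 1.11 ± 0.14 and the tissue activator Plat by 0.51 ± 0.07. Inhibitory members moved in the same direction. Tfpi2, a Kunitz inhibitor of plasmin and other serine proteases, went from 7.71, 8.05 and 7.82 to 9.55, 9.25 and 9.50 (1.58 ± 0.14), and the endothelial protein C receptor Procr rose by 1.08 ± 0.11. In all 5 of these genes the 3 stroke arrays lay above the 3 naive arrays, and each kept its call when any 1 array was left out and with the score covariates.

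In the matrix itself, genes moved in both directions. Of 18 provisional and scar matrix genes 7 rose and 1 fell. Hyaluronan synthase Has2 went from 5.78, 5.57 and 5.78, which is under the arrays' lower quartile, to 7.25, 6.65 and 6.98 (1.25 ± 0.12), and the hyaluronan receptor Cd44 from 8.26, 8.23 and 7.99 to 9.37, 9.41 and 9.22 (1.18 ± 0.13). Versican (Vcan), a large proteoglycan that binds hyaluronan, rose by 1.24 ± 0.15. The collagen crosslinking enzyme Lox rose by 1.05 ± 0.16, and galectin-3 (Lgals3) by 1.16 ± 0.16. The exception was thrombospondin-1 (Thbs1), which fell by 0.53 (adjusted p = 0.0251) and lost its call without any 1 of 4 arrays and with the covariates (adjusted p = 0.0705).

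Of 14 collagen genes 7 rose and 0 fell (median 0.32). The basement membrane chains Col4a1 (0.66 ± 0.09) and Col4a2 (0.58 ± 0.10) and Col18a1 (0.54 ± 0.08) kept their calls under every array left out and with the covariates. Col3a1, a fibril collagen of young scars, read 10.68, 10.65 and 10.34 and then 11.24, 11.77 and 11.29 (0.88 ± 0.21), highest in stroke array 2, and it was not called with the score covariates (adjusted p = 0.115). The main bone and tendon collagen, Col1a1, read 12.24, 12.33 and 12.01 and then 11.99, 12.59 and 11.79, so its groups overlapped (-0.07 ± 0.19). The count of 7 fell to 3 without naive array 3 or stroke array 2, and to 3 with the covariates.

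Of 15 cartilage and tendon genes 8 fell and 1 rose, with a median of -0.49. Cartilage oligomeric matrix protein, Comp, read 10.36, 10.26 and 10.07 in naive dura against 8.51, 8.36 and 8.09 after stroke (-1.91 ± 0.18, adjusted p = 1.26e-05). Chondroadherin (Chad), a collagen-binding leucine-rich protein, read 11.50, 11.66 and 11.15 and then 10.04, 9.60 and 9.14 (-1.84 ± 0.27). In both genes the highest stroke array was at least 1 log2 unit under the lowest naive array. The related small proteoglycans fibromodulin (Fmod, -1.19 ± 0.09), osteomodulin (Omd, -1.23 ± 0.15) and osteoglycin (Ogn, -0.57 ± 0.07) fell as well, and so did the tendon membrane protein tenomodulin (Tnmd, -1.37 ± 0.19). The 1 member that rose was lubricin, Prg4, the joint lubricant that keeps gliding surfaces apart. It went from 11.25, 11.05 and 11.33 to 12.95, 13.06 and 13.15 (1.84 ± 0.12). All of these kept their calls without any 1 array and with the covariates.

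Several of the largest rises were in genes known from epithelia. Krtdap, a differentiation protein of keratinocytes, read 5.16, 5.63 and 5.27, under the lower quartile, and then 8.28, 8.86 and 9.0 (3.36 ± 0.24, adjusted p = 9.1e-07). Mesothelin (Msln), a surface protein of the mesothelium, went from 8.05, 8.16 and 8.33 to 10.81, 10.62 and 11.22 (2.71 ± 0.20). Reg3g, an antimicrobial lectin of gut and skin, went from 5.57, 5.55 and 5.38 to 8.37, 7.55 and 9.14, with the stroke arrays far apart from each other (2.86 ± 0.26). The transglutaminase Tgm1, which builds the cornified envelope of skin, went from 7.56, 7.53 and 7.44 to 10.02, 10.01 and 9.35 (2.28 ± 0.20). Only 5 of the 21 measured genes of this list rose, and 0 fell. Outside this list, the keratin Krt8 of the arachnoid barrier list read 10.48, 10.21 and 10.53 and then 10.10, 9.93 and 10.91, with overlapping groups. E-cadherin (Cdh1), also of the arachnoid barrier list, did not pass either (0.01 ± 0.12, adjusted p = 0.958). Of the 8 measured keratinocyte markers, limma called 0 in either direction, with 1 at an unadjusted p under 0.05.

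**Figure D3:**
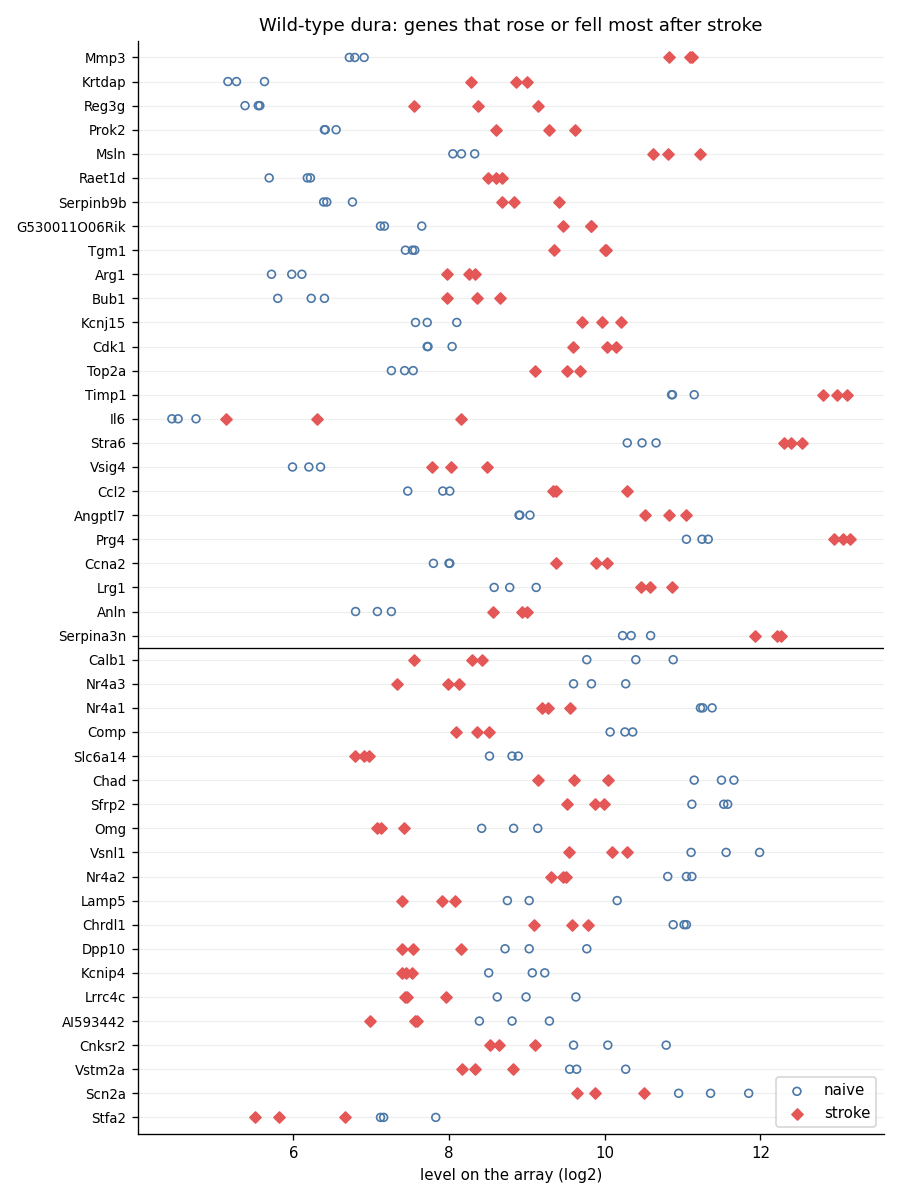
Level (log2) of the genes with the largest rises (25) and the largest falls (20), each on a row of its own. Circles are the 3 naive and diamonds the 3 stroke arrays. For Mmp3 the naive arrays lie at 6.72 to 6.91 and the stroke arrays at 10.83 to 11.12. For Il6 the stroke arrays are spread from 5.14 to 8.15.

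Several chemokine genes rose after stroke. Of 27 measured, 9 rose and 2 fell, and 6 rose with the covariates. The monocyte attractant Ccl2 read 7.92, 8.01 and 7.47 and then 10.29, 9.33 and 9.37, highest in stroke array 1 (1.86 ± 0.20). The related Ccl7 rose by 1.38 ± 0.21, Ccl3 by 1.13 ± 0.14, Ccl6 by 1.21 ± 0.20 and Ccl9 by 1.29 ± 0.18. Cxcl1, a neutrophil attractant, rose less, by 0.55 ± 0.08. The B cell attractant Cxcl13 went from 7.94, 8.42 and 7.80 to 9.12, 10.01 and 9.80 (1.59 ± 0.27), but was not called as rising with the covariates. The 2 that fell were the interferon-induced T cell attractant Cxcl9, at 8.40, 9.06 and 8.60 and then 7.67, 7.40 and 7.80 (-1.06 ± 0.26), and the eosinophil attractant Ccl24 (-0.65 ± 0.14). Of 14 interferon-stimulated genes limma called 0 in either direction, with 3 at an unadjusted p under 0.05 and a median of -0.24. Cxcl10, another interferon target, read 7.42, 7.89 and 7.35 and then 7.76, 7.23 and 7.56, with overlapping groups.

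The interleukin 6 family and its targets rose in most members. Of 17 measured, 11 rose and 0 fell (median 0.80). Without any 1 array the count was 9 to 10, and with the covariates 8. Among the ligands, Il11 went from 6.49, 6.64 and 6.39 to 8.75, 7.63 and 7.81 (1.56 ± 0.20) and Lif from 6.37, 6.52 and 6.47 to 7.24, 6.96 and 7.56 (0.80 ± 0.12). Il6 read 4.44, 4.75 and 4.52, far under the lower quartile, and then 6.30, 5.14 and 8.15. Its stroke arrays differed among themselves by more than 3 log2 units, so the difference of 1.96 ± 0.53 (adjusted p = 0.0270) rested on few arrays. It was not called without any 1 of 4 arrays, with the covariates (adjusted p = 0.171) or in a fit to these 6 arrays alone (adjusted p = 0.114).

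The receptors and targets were steadier. The oncostatin M receptor Osmr read 10.43, 10.28 and 10.33 and then 11.29, 11.28 and 11.32 (0.95 ± 0.12), while the shared chain Il6st did not pass (0.08 ± 0.08). Socs3, the feedback inhibitor that Stat3 induces, went from 8.08, 8.10 and 8.14 to 9.54, 9.47 and 9.70 (1.46 ± 0.11). Serpina3n, an acute phase protease inhibitor, went from 10.34, 10.59 and 10.23 to 11.93, 12.27 and 12.21 (1.75 ± 0.16), and Lrg1, a secreted glycoprotein of the acute phase, from 8.58, 8.78 and 9.12 to 10.47, 10.86 and 10.58 (1.81 ± 0.20). The groups of these 4 genes that rose were apart by at least 0.8 log2 units. The acute phase apolipoprotein Saa3 read 5.81, 6.07 and 5.96 and then 6.58, 7.72 and 7.49 (1.31 ± 0.29), and was not called with the covariates (adjusted p = 0.0925).

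Other cytokine families changed in single members. Of 14 genes of the TNF superfamily and its feedback, 5 rose and 0 fell, with 3 risers without naive array 3 or stroke array 2. The leading member was Tnfrsf12a, the receptor for TWEAK, at 8.51, 8.74 and 8.64 and then 9.79, 9.59 and 10.02 (1.17 ± 0.10). Of 11 interleukin 1 family genes 3 rose and 1 fell: the decoy receptor Il1r2 rose by 0.72 ± 0.13 and the alarmin Il33 by 0.66 ± 0.13. Of 13 TGF-beta and activin genes 3 rose and 1 fell, among them Tgfb1 (0.73 ± 0.10) and the activin subunit Inhba (0.94 ± 0.15). Il33 and the interleukin 1 antagonist Il1rn (0.30 ± 0.09) were not called with the covariates.

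Arginase 1 (Arg1), which turns arginine into ornithine and marks wound-type macrophages, had one of the smallest p-values. It read 6.11, 5.72 and 5.98 in naive dura, near or under the lower quartile, against 8.33, 7.98 and 8.26 after stroke (2.26 ± 0.11, adjusted p = 2.58e-08). Prokineticin 2 (Prok2), a secreted peptide that neutrophils make, went from 6.40, 6.55 and 6.41 to 8.60, 9.28 and 9.62 (2.71 ± 0.17). Both are wide gaps in genes that myeloid cells are known to carry, and neither lost its call without any 1 array or with the covariates.

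Among the lists of myeloid cells, 5 of 10 infiltrating monocyte markers rose and 2 fell, the falls being 0 without naive array 2, naive array 3 or stroke array 1, and 7 of 15 mature neutrophil markers rose and 0 fell. The monocyte score was -0.01, -0.19 and -0.21 in naive arrays and 0.46, 0.56 and 0.38 after stroke. The neutrophil score was 0.10, -0.26 and 0.11 and then 0.36, 0.95 and 0.62. The neutrophil calprotectin genes themselves did not pass: S100a8 read 10.60, 9.59 and 10.38 and then 9.93, 11.36 and 10.38, with overlapping groups (0.37 ± 0.44). Of 15 myeloid danger receptors 8 rose and 0 fell (median 0.44), with 5 under the covariates. The scavenger receptor Msr1 rose by 1.12 ± 0.14, the endotoxin co-receptor Cd14 by 0.80 ± 0.12, and the C-type lectin Clec4e went from 5.87, 5.78 and 6.10 to 7.12, 6.96 and 7.23 (1.19 ± 0.19). Of 12 adhesion genes 5 rose and 0 fell. They were both integrin chains of Mac-1, Itgam (0.81 ± 0.13) and Itgb2 (0.82 ± 0.15), and E-selectin (Sele, 0.48 ± 0.09), Cd34 (0.41 ± 0.09) and Icam1 (0.48 ± 0.10). Icam1 was not called with the covariates (adjusted p = 0.170).

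Some genes of antigen presentation and of resident macrophages fell. Of 9 class II presentation genes 4 fell and 1 rose (median -0.46), with 2 falling without stroke array 3. H2-Aa read 11.68, 11.59 and 11.36 and then 10.94, 10.84 and 10.65 (-0.73 ± 0.13), and H2-Ab1 and H2-Eb1 fell by 0.69 and 0.56. The invariant chain Cd74 fell by 0.59 (adjusted p = 0.0291) and lost its call without any 1 of 4 arrays. The riser was the co-stimulatory ligand Cd80, from 8.38, 8.28 and 8.40 to 9.33, 9.35 and 9.45 (1.03 ± 0.13). Of 12 resident macrophage markers 3 fell and 1 rose. Cd209f, a lectin of perivascular macrophages, fell by 0.93 (10.04, 10.44 and 9.48 and then 9.18, 9.15 and 8.84). The mannose receptor Mrc1 did not pass (-0.28 ± 0.13, adjusted p = 0.198). The riser, Lyve1 (0.79 ± 0.15), is also a marker of lymphatic vessels, and was not called with the covariates (adjusted p = 0.0793). Of 11 T and NK cell markers limma called 0 in either direction, with 0 at an unadjusted p under 0.05.

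The mast cell score read 0.54, 0.36 and 0.42 in naive arrays and then 0.31, 0.32 and 0.13, so that all stroke arrays were the lower ones. Beside 4.51% of all genes that fell and 6.34% that rose, 1 of 14 mast cell markers passed as lower and 0 as higher. It was the receptor Kit, at 9.41, 9.83 and 9.36 and then 9.17, 8.92 and 8.80 (-0.57 ± 0.15, adjusted p = 0.0217), and its call was lost without any 1 of 3 arrays and with the covariates (adjusted p = 0.120). Cpa3 read 9.79, 9.13 and 9.41 and then 9.17, 9.29 and 8.39, with overlapping groups (-0.49 ± 0.37).

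Of 14 complement genes 5 rose and 1 fell, and the count of risers was 3 without naive array 2. The receptor C3ar1 rose by 0.72 ± 0.12, while the early component C2 fell by 0.56 (8.68, 8.70 and 8.44 and then 8.15, 8.01 and 7.98). Haem oxygenase 1 (Hmox1), which breaks down haem, went from 9.40, 9.18 and 9.29 to 11.15, 10.57 and 10.52 (1.46 ± 0.17). The other haem and iron genes moved less: 3 of 13 rose in all, and 1 without naive array 2, stroke array 2 or stroke array 3. Of 15 hypoxia-induced genes 1 rose and 0 fell, and Vegfa did not pass (0.14 ± 0.09, adjusted p = 0.378). The marker genes of endothelium likewise had 1 riser of 12, the fenestral protein Plvap (0.56 ± 0.13). Both the hypoxia and the endothelium counts are near the 6.34% of all genes that rose.

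**Figure D4:**
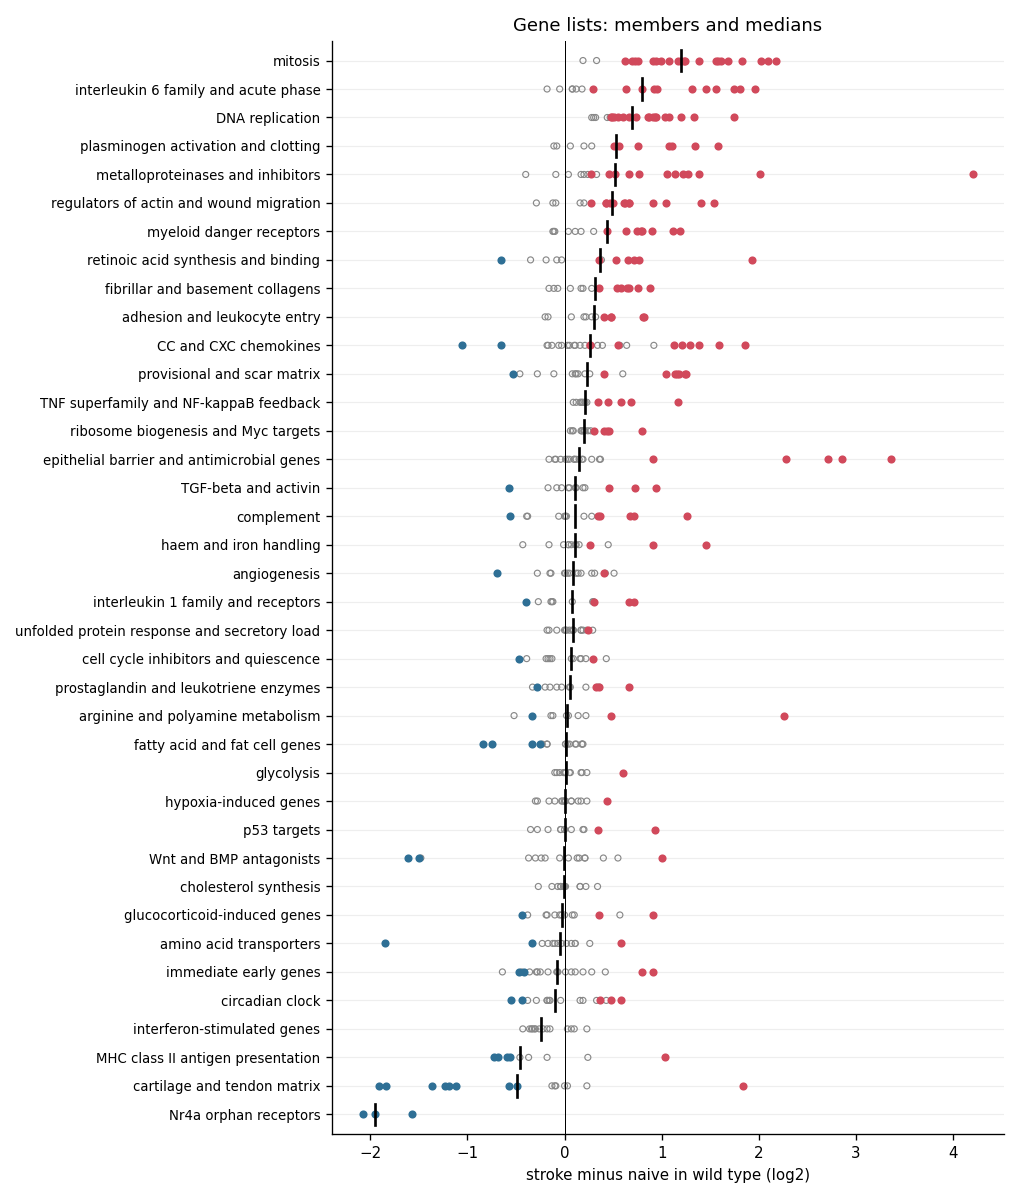
Stroke minus naive difference (log2) of each measured member of the 38 gene programme lists, with the median of each list as a tick. The mitosis list has the highest median among lists of more than 3 genes, 1.20, and the Nr4a receptors the lowest, -1.95.

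Cell division genes rose almost as a whole. Of 23 measured mitosis genes 21 rose and 0 fell, with a median of 1.20, and of 22 DNA replication genes 17 rose and 0 fell, with a median of 0.70. The share of all genes that rose was 6.34%. Without any 1 array the mitosis count was 17 to 21 and the replication count 16 to 18, and with the covariates they were 16 and 13. The mitotic kinase Cdk1 read 7.72, 7.73 and 8.04 and then 10.03, 10.15 and 9.59 (2.10 ± 0.27, adjusted p = 0.000163). Bub1, of the spindle checkpoint, read 6.40, 5.80 and 6.23 and then 8.65, 8.36 and 7.97 (2.18 ± 0.34). Topoisomerase Top2a read 7.43, 7.26 and 7.54 and then 9.68, 9.51 and 9.11 (2.02 ± 0.34). For each of the 3 genes stroke array 3 had the lowest of the stroke values, still more than 1.5 log2 units above the highest naive value. The kinase Plk1 rose by 1.68 ± 0.25, the kinesin Kif20a by 1.56 ± 0.16 and the kinetochore protein Cenpf by 1.08 ± 0.14.

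On the replication side, Chaf1b, a chromatin assembly factor that works behind the fork, went from 7.16, 6.88 and 6.99 to 8.49, 8.33 and 8.21 (1.33 ± 0.12), and the helicase subunit Mcm5 from 7.89, 7.95 and 7.87 to 9.05, 9.16 and 8.73 (1.08 ± 0.15). Ribonucleotide reductase Rrm2, which makes DNA precursors, went from 7.61, 7.24 and 7.54 to 9.52, 9.14 and 8.97 (1.75 ± 0.31). The lists that often accompany division were less complete. Of 16 ribosome biogenesis genes and Myc targets 5 rose and 0 fell, among them Myc itself (0.80 ± 0.14), which was not called with the covariates (adjusted p = 0.0698). Of 13 cell cycle inhibitors 1 rose and 1 fell, beside 6.34% and 4.51% of all genes. Of 11 p53 targets 2 rose and 0 fell, led by Phlda3 (9.77, 9.56 and 9.84 and then 10.60, 10.68 and 10.68).

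Promoters of cell division genes are shown because these members moved together and because such genes are known to share upstream elements: the CHR (TTTGAA) and the CCAAT box in genes of mitosis, and E2F sites in genes of replication. Capitals mark matches on either strand, so the CCAAT box also appears as ATTGG and the CHR as TTCAAA. Each run is the 250 bases before the start, 5′ to 3′ along the gene (RefSeq, GRCm38.p6). Cdk1 is from chr10:69352913-69353162 on the minus strand, Cenpf from chr1:189688087-189688336 on the minus strand, Plk1 from chr7:122159185-122159434 on the plus strand and Mcm5 from chr8:75109259-75109508 on the plus strand. For Mcm5 the capitals mark E2F matches.
Cdk1: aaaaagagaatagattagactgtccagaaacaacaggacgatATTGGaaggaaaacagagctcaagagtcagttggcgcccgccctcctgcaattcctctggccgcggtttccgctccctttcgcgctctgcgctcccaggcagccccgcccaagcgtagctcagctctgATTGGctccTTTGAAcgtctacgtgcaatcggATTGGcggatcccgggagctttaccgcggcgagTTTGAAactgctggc
Cenpf: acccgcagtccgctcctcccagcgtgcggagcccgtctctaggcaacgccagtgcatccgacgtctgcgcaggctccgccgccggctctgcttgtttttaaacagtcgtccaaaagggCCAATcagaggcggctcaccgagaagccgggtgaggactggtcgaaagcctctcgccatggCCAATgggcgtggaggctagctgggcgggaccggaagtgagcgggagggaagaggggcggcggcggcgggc
Plk1: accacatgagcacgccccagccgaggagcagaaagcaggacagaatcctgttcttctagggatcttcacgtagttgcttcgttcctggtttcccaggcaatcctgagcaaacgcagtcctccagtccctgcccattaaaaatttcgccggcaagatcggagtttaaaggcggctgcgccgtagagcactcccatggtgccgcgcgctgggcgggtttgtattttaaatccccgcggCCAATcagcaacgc
Mcm5: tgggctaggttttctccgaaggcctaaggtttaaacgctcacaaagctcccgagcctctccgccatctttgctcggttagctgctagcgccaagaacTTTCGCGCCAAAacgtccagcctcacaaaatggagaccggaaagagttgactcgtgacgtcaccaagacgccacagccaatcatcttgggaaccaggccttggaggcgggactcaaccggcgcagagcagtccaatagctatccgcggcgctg
In Cdk1 there were 5 matches, beginning 208, 80, 71, 48 and 15 bases before the start. In Cenpf both matches, 132 and 71 bases before the start, were CCAAT boxes, and Plk1 held 1 match, 14 bases before it. In Mcm5 the E2F matches 153 and 149 bases before the start overlap each other.

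Over the window from 250 bases before to 50 after the start, the CHR was in 14 of 19 mitosis genes, 73.7%, against 15.2% of 15562 promoters, 18.3% of those of genes that rose and 11% of those of genes that fell. The CCAAT box was in 15 of 19 mitosis genes (78.9%) and in 13 of 19 replication genes (68.4%), against 38.3% of all promoters. E2F matches, counted as TTTGGCGC, TTTCCCGC, TTTCGCGC or TTTGCCGC, were in 7 of 19 replication genes (36.8%) against 3.08% of all promoters and 5.88% of those of genes that rose. The replication genes with the smallest p-values, Chaf1b and Tk1, held no E2F match in the 250 bases before the start. These shares describe sequence and give no measure of binding.

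Of 18 regulators of actin and wound migration 13 rose and 0 fell, with a median of 0.48, 11 to 12 without any 1 array and 8 with the covariates. The capping protein Capg read 8.32, 8.21 and 8.27 and then 9.69, 9.96 and 9.78 (1.54 ± 0.10). The calcium-binding protein S100a6 rose by 1.41 ± 0.15, S100a4 by 1.04 ± 0.19, annexin 2 (Anxa2) by 0.66 ± 0.10 and vimentin (Vim) by 0.43 ± 0.08. Smooth muscle actin (Acta2), the usual marker of contractile myofibroblasts, did not pass: it read 12.35, 12.24 and 12.21 and then 12.29, 12.22 and 11.91.

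The Nr4a orphan nuclear receptors, transcription factors that are quickly induced by many stimuli, fell together. All 3 fell, with a median of -1.95. Nr4a1 read 11.26, 11.38 and 11.23 and then 9.27, 9.20 and 9.55 (-1.95 ± 0.26, adjusted p = 0.000214). Nr4a2 read 10.81, 11.12 and 11.05 and then 9.50, 9.31 and 9.46 (-1.57 ± 0.17). Nr4a3 read 9.60, 9.83 and 10.27 and then 8.13, 7.33 and 7.99 (-2.08 ± 0.22). In each, all stroke arrays lay more than 1 log2 unit under all naive arrays, and the calls stood without any 1 array and with the covariates. Of 20 other immediate early genes 2 rose and 2 fell, and the falls were 0 without naive array 2 or stroke array 1. Fos read 7.44, 8.54 and 7.78 and then 7.90, 8.15 and 7.94, and Egr1 9.53, 10.01 and 9.26 and then 9.50, 9.81 and 9.52, both with overlapping groups. Fosl1, a Fos relative that joins Jun in AP-1, went from 6.79, 6.77 and 6.72 to 7.48, 7.67 and 7.85 (0.91 ± 0.08), and Btg2 and Klf2 fell by 0.47 and 0.42. The palindromic cyclic AMP element TGACGTCA was in 0 of 3 Nr4a promoter windows and in 2.50% of all.

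Of 16 clock genes 3 rose and 2 fell. The activator Arntl fell by 0.55 (9.90, 10.12 and 10.15 and then 9.49, 9.62 and 9.40), and the output factor Dbp rose by 0.58, but limma called 0 risers with the covariates, 1 without any 1 of naive arrays 1 to 3 or stroke array 1, and 0 without stroke array 3. The hour at which each dura was taken is not given in the sources used here. Of 13 glucocorticoid-induced genes 2 rose and 1 fell, with 0 risers without stroke array 2 or 3.

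Genes of retinoic acid handling rose in number. Of 12 measured, 6 rose and 1 fell (median 0.36), with 3 risers under the covariates. Stra6, the membrane receptor that takes up vitamin A, went from 10.66, 10.29 and 10.48 to 12.39, 12.30 and 12.54 (1.93 ± 0.16, adjusted p = 2.7e-06). The receptor Rarb rose by 0.77 ± 0.10, and the member that fell was Aldh1a1 (-0.65 ± 0.16), which makes retinoic acid and was not called with the covariates (adjusted p = 0.0506). Among Wnt and BMP antagonists, the secreted Sfrp2 (-1.61 ± 0.17) and Chrdl1 (-1.50 ± 0.15) fell while Sfrp4 rose (1.00 ± 0.10). Chrdl1 read 11.05, 11.02 and 10.88 and then 9.78, 9.58 and 9.09. The other 13 antagonists measured did not pass. The amino acid transporter Slc6a14 fell from 8.89, 8.81 and 8.52 to 6.91, 6.97 and 6.79 (-1.85 ± 0.15). Angiopoietin 1 (Angpt1), which steadies vessels, fell by 0.70 (9.15, 9.37 and 8.91 and then 8.63, 8.33 and 8.35).

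Of 11 osteoblast and osteoclast markers 4 rose, namely Mmp9, Ctsk, Acp5 and Atp6v0d2, all carried by osteoclasts, and the count was 1 with the covariates and 1 without naive array 1, naive array 3 or stroke array 2. Cathepsin K (Ctsk) read 10.74, 10.66 and 10.78 and then 11.17, 11.69 and 11.29, highest in stroke array 2. The unfolded protein response had 1 riser of 16 and glycolysis 1 of 13, near the 6.34% of all genes that rose. For cholesterol synthesis limma called 0 of 12 in either direction, with 3 at an unadjusted p under 0.05. Of 16 fat cell genes 4 fell, 2 without naive array 2, stroke array 1 or stroke array 3, led by the neighbouring genes Arxes2 (-0.84 ± 0.15) and Arxes1 (-0.75 ± 0.13), neither of which was called with the covariates. These are near-identical copies of each other, so their signals may be shared between probes.

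Many of the largest falls were in genes of neurons, and they moved with the neuron score. All 11 neuron markers had stroke arrays below naive arrays, beside 30.1% of all genes whose groups did not overlap in either direction. Their median was -0.77, but 5 passed. The count that passed was 0 without naive array 3 or stroke array 3. With the score covariates it was 0 as well, but the neuron score is built from these same 11 genes. That fit therefore could not test them. For other genes it is limited too: the neuron score separates the groups, so the score and the stroke cannot be told apart. Calbindin (Calb1), a calcium buffer, read 9.77, 10.88 and 10.40 and then 8.30, 7.55 and 8.43 (-2.25 ± 0.42), and its adjusted p with the covariates was 0.101. Visinin-like 1 (Vsnl1), a neuronal calcium sensor, fell by 1.58 (adjusted p = 0.0159), with 0.285 under the covariates, and the sodium channel Scn2a fell by 1.38 (adjusted p = 0.0228), with 0.536. Of the astrocyte list 4 of 9 fell and 1 rose, and 1 fell when array 2 or 3 of either group was left out. Gfap, which reactive astrocytes raise, was the riser: it read 9.61, 9.40 and 9.47 and then 10.52, 10.59 and 10.15 (0.93 ± 0.21). It kept its call without any 1 array and with the covariates (adjusted p = 0.0150). Of 7 microglia markers 1 rose and 1 fell.

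For some called genes the difference depended much on 1 stroke array. The fits without stroke array 3 gave -0.50 in place of -0.97 for the secretory granule protein Ptprn, -0.57 in place of -0.97 for the kinesin Kif5c and -0.35 in place of -0.73 for the kinase Dclk1. None of the 3 was called with the covariates. In these genes stroke array 3 was the lowest, and its neuron score of -0.92 was the lowest of the 6 arrays as well. Gpnmb, a macrophage and melanocyte glycoprotein, read 8.51, 9.73 and 8.28 after stroke, with stroke array 2 nearest to the naive values of 10.22, 10.34 and 10.07, and was not called with the covariates (adjusted p = 0.0728). Ptprn, Kif5c, Dclk1 and Gpnmb were among the 10 called genes with the largest SD over the stroke arrays. Of the others, Slc17a6 (-1.33, adjusted p = 0.0393), Aspn (-0.97, 0.0301), Sh2d6 (-1.63, 0.0491) and Reg3g (2.68, 0.00068) stayed called with the covariates. Il6 and Saa3 did not. Slc17a6, Aspn and Sh2d6 lost their calls when some single arrays were left out.

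The wild-type response was then set beside the responses of the mast cell-deficient and engrafted mice. The 3 comparisons use different arrays, while each difference of responses shares the wild-type arrays with the wild-type comparison. In deficient dura 25 genes rose and 25 fell, and in engrafted dura 180 rose and 51 fell. Of the 1265 genes that rose in wild type, 1151 had a positive difference in deficient dura (median 0.16) and 22 were called there. In engrafted dura 1075 were positive (median 0.19) and 155 were called. Of the 900 that fell, 835 were negative in deficient dura (median -0.17) and 668 in engrafted dura (median -0.09). The share of all genes with each sign in deficient and engrafted dura is not given here. The counts of signs thus have no background to be read against and do not by themselves show a shared response.

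The differences between responses themselves were tested in the same fit. The deficient response differed from the wild-type response in 76 probe sets, 0.351%, and the engrafted response in 23, 0.106%. Counted as genes, 72 were lower in the deficient response and 2 higher. The engrafted response was lower in 21 genes and higher in 2. Overlaps of these genes with the wild-type calls are not given, since the wild-type arrays enter all of these comparisons. The first count was 31 without deficient stroke array 3 and 117 without deficient naive array 2, and the second 8 without engrafted naive array 2 or 3 and 52 without engrafted stroke array 2.

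Some genes of the lists above differed from wild type in deficient dura. Mmp3 differed between stroke and naive by 0.89 in deficient and 3.02 in engrafted dura, against 4.21 in wild type. The difference from the deficient response passed (-3.33, adjusted p = 8.19e-06) and that from the engrafted response did not (adjusted p = 0.106). Of the 19 metalloproteinase genes 5 differed in the deficient response, all lower, against 5 of 12 plasmin genes and 4 of 21 epithelial genes. In the engrafted response 1, 2 and 2 of them differed. Over all probe sets 0.351% differed in the deficient and 0.106% in the engrafted response. Because the wild-type arrays are shared, genes that rose in wild type are favoured to look lower in the other mice. Arg1 differed in both, with 0.10 in deficient and 0.23 in engrafted dura, and so did Ccl2, with 0.08 and 0.30, Socs3, with 0.41 and 0.31, and Reg3g, with 0.26 and 0.62.

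For other genes the differences in the other mice were nearer to the wild-type value. Serpina3n differed by 1.42 in deficient and 1.75 in engrafted dura against 1.75 in wild type (adjusted p of the differences, 0.882 and 0.997). Nr4a1 differed by -1.50 and -1.0, and Comp by -1.09 and -1.38, against -1.95 and -1.91 in wild type, and none of these differences between responses passed. The mitosis list had medians of 0.36 in deficient, 0.73 in engrafted and 1.20 in wild-type dura, with Kif20a the 1 of 23 members to differ between deficient and wild type. Slc6a14 differed by -0.40 in deficient dura against -1.85 in wild type, and the difference between them passed (1.45, adjusted p = 0.00519). Arxes1 and Arxes2 differed in the engrafted response, where both had positive values, 0.31 and 0.49. A p that misses the threshold does not show that responses were equal: the median SE of a difference between responses was 0.136.

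**Figure D5:**
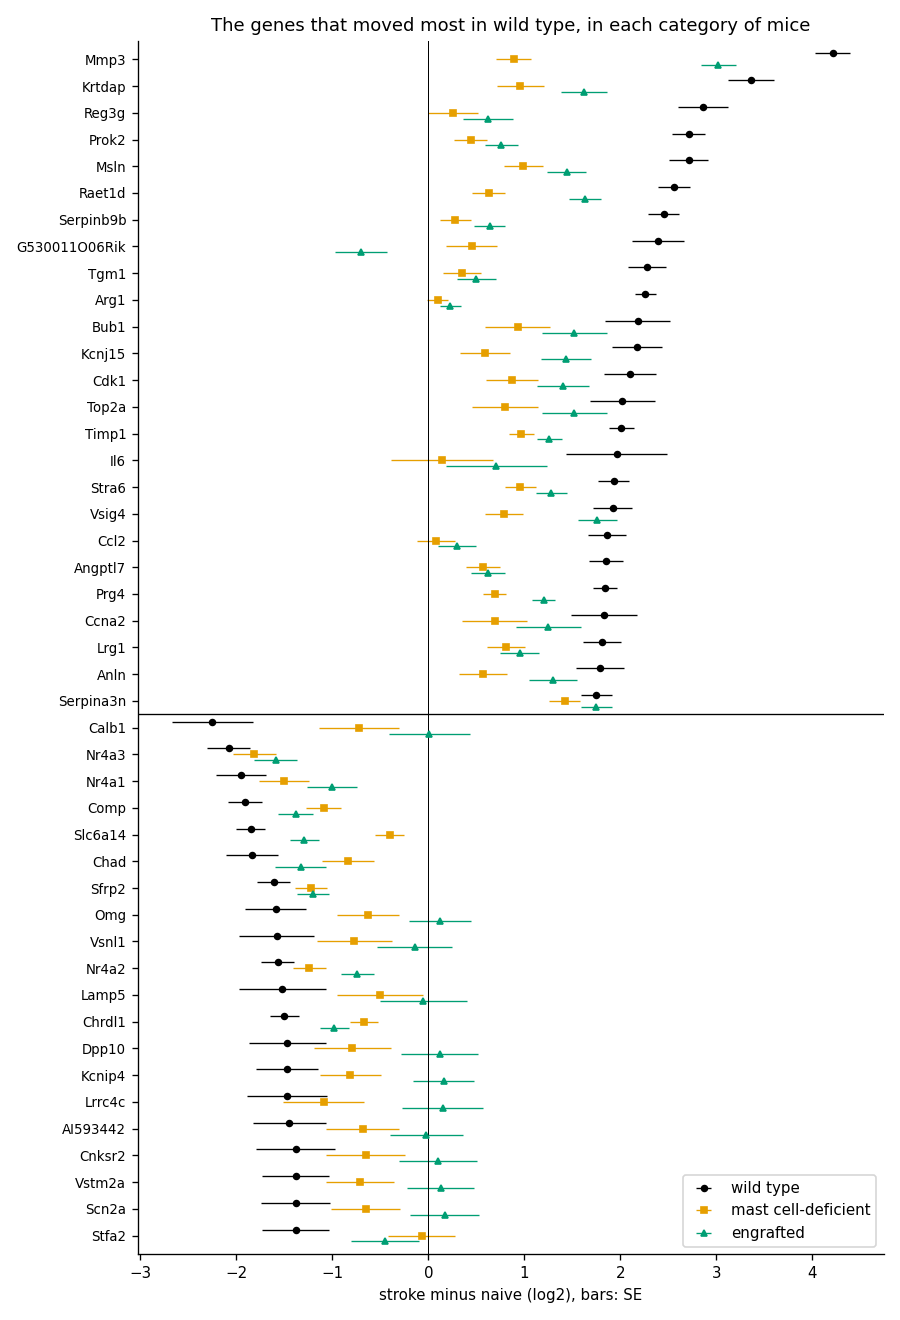
Stroke minus naive difference (log2) with its SE in wild-type, mast cell-deficient and engrafted dura for the 45 genes with the largest wild-type changes. For Mmp3 the values are 4.21, 0.89 and 3.02, and for Serpina3n 1.75, 1.42 and 1.75.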

How the data were processed

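RNA of 18 dura samples had been measured on Affymetrix mouse gene arrays. The authors deposited 1 table of log2 expression values, with 34760 probe sets. The submitters' processing notes name RMA, affy and R 3.0.0, without giving their roles. Values ran from 3.42 to 14.06 and array medians from 7.77 to 7.91. The table holds no detection calls, and levels were not compared between genes, whose probes differ. GEO's platform annotation gave 21640 probe sets a single gene symbol. Those with several (1321) or none (11799) stayed out of the main test. Groups came from sample titles. limma 3.58.1 in R 4.3.3 was fitted to all 18 arrays, with 1 mean a group, 12 residual and 3.41 prior degrees of freedom, and was tested on simulated data. Precision is limited by 3 arrays a group, and the median SE of a wild-type difference was 0.096. A gene is represented by its brightest probe set. There were 62 lists with 815 genes, of which 750 were measured. The lists and the genes described were chosen with earlier results of these data known. No set test was run.

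The genes described were drawn from a rule, and not every gene of the rule is described. It took Kit, Il6 and Ccl7, the 25 genes with the largest rises and the 20 with the largest falls. Per list it took up to 6 with the smallest p and up to 3 well-known others. It also took the 10 called genes with the largest SD over the stroke arrays, and the 5 with the smallest p in each difference of responses. Raet1d (2.56), Serpinb9b (2.45), G530011O06Rik (2.39) and Vsig4 (1.92) are among the large rises shown in the figures only. Ccl24, Cxcl9, Cxcl13, Mmp13, Mmp14, Rrm2, S100a4, S100a8, Vim, Mrc1, Dcn and Lum were named after their values were seen. Promoter windows for 15562 genes came from RefSeq (GRCm38.p6). A shown promoter is that of a called list member among the 3 with the smallest p of those with a window in that table and not on chromosome 18. Alternatives covered the filter on dim probe sets, normalization, variance model, array weights, arrays used, replicate block, a minimum fold, score covariates and leaving out each array.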

Additional observations from a re-analysis of the deposited data

Results flagged for a closer look

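These results were singled out because the stroke response of a gene differed between wild-type mice and another category by limma's test of the difference itself (adjusted p under 0.05), among the genes described above. A negative value means a lower response than in wild type, on the log2 scale, and all of these values use the same wild-type arrays. No explanation was tested for any of them, and 2 sets of mice that differ in the Kit gene also differ in more than their mast cells.

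In deficient mice 5 of 19 metalloproteinase genes and 5 of 12 plasmin genes responded less, beside 0.351% of all probe sets that differed. The lists were chosen with earlier results known. Genes that rose in wild type are favoured to look lower elsewhere, because the wild-type arrays are shared. The metalloproteinase values were Mmp3 -3.33, Adamts5 -1.52, Mmp9 -1.48, Adamts4 -1.41 and the inhibitor Timp1 -1.04. The plasmin values were Plaur -1.44, Tfpi2 -1.27, Plau -1.12, Procr -0.99 and Plat -0.68. The matrix genes Cd44 (-1.31), Prg4 (-1.15), Has2 (-1.14), Lox (-1.14) and Vcan (-1.08) also differed.

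Other genes with a lower response in deficient mice were Reg3g at -2.59, Krtdap at -2.41, Prok2 at -2.27, Arg1 at -2.15, Tgm1 at -1.93 and Msln at -1.72. Among signalling genes the values were -1.78 for Ccl2, -1.46 for Ccl7, -1.42 for Il11, -1.08 for Tnfrsf12a, -1.07 for Inhba and -1.05 for Socs3. The cell division genes Kif20a (-1.20) and Chaf1b (-0.87) differed, as did S100a6 (-1.20), Hmox1 (-1.18), Myc (-1.11), Capg (-0.80), Fosl1 (-0.69) and Phlda3 (-0.61). Slc6a14, which fell in wild type, had a value of 1.45. The adjusted p lay above 0.04 for Vcan (0.0401), Mmp9 (0.0414), Il11 and Lox (both 0.0416), Hmox1 (0.0460) and Ccl7 (0.0485).

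In engrafted mice, fewer of the described genes differed from wild type. The lower responses were Reg3g (-2.24), Arg1 (-2.03), Prok2 (-1.95), Tgm1 (-1.78), Ccl2 (-1.56), Hmox1 (-1.35), Tfpi2 (-1.30), Socs3 (-1.15), Tnfrsf12a (-1.14), Adamts5 (-1.13), Plaur (-1.01), Has2 (-0.95), Fosl1 (-0.95) and Phlda3 (-0.65). Arxes1 (1.06) and Arxes2 (1.33) fell in wild type and had positive differences in engrafted dura. The adjusted p lay above 0.04 for Hmox1 (0.0428), Plaur and Arxes1 (both 0.0440) and Ccl2 (0.0497).

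Probe sets outside the gene tests also differed. Of 13120 with no symbol or several, 638 passed in wild type when all probe sets were fitted together, 274 higher and 364 lower. They name no gene here.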

How the results depend on the processing

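The wild-type count of 2352 stayed within 1.5 times of its value with dim probe sets left out, a second quantile normalization, a trended variance, array weights, all probe sets or the choroid plexus score as a covariate. It was 1440 in a fit to the 6 arrays alone, 65 (57 higher, 8 lower) for a change of at least 1.5-fold, and 1256 with the neuron score alone as a covariate. Both fits with a single score, choroid plexus or neuron, were added after seeing the data. With the choroid plexus and neuron scores together 1575 probe sets were called, 767 higher and 808 lower, and 911 of them were among the 2352. Leaving out an array gave 1371 to 2211. The deficient difference of 76 was 305 with array weights, 4 for at least 1.5-fold, 50 with both scores and 50 with the neuron score, and 31 to 117 without an array. It was at most 44 without wild-type naive array 3 (41) or stroke array 2 (44), deficient naive arrays 1 (34) or 3 (43), or deficient stroke arrays 2 (38) or 3 (31). The engrafted difference of 23 was 42 with array weights, 10 with only its own arrays, 1 for at least 1.5-fold, 8 with both scores and 8 to 52 without an array. It was at most 14 without any 1 wild-type naive array, wild-type stroke array 3, engrafted naive array 2 or 3, or engrafted stroke array 1 or 3. The cause of these shifts was not tested.

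Arrays with the same replicate number did not deviate together in wild type, with correlations of -0.182, 0.048 and 0.033, so the numbers were not taken as pairs. With the number as a block 2030 probe sets were called in wild type, 46 in the deficient and 11 in the engrafted difference, and 18 of the 224 called genes named by the rule lost their call.

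Of those 224 genes, 146 kept their call without any 1 array, 138 with both scores as covariates and 186 in the fit to 6 arrays. Ttr, at -1.44 and not called, was at 0.12 without stroke array 2 and at -2.25 to -1.38 without any 1 other array of its groups. With 3 arrays a group, small changes lie within the SE, and levels near the lower quartile have no detection call behind them.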
